A study of Mus musculus with 14 samples.

Results

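The interferon response and antigen processing genes examined here are 41 named genes in kidney cortex of TRACK mice and wild-type mice, each on 2 diets. The 41 were chosen by gene symbol: 5 transcription factors, 4 nucleic acid sensors, 16 antiviral effectors and other interferon-induced genes, 8 interferon-induced GTPases and 8 genes of antigen processing. Of these, 40 had a row in the deposited table, which held 22007 gene IDs, and 38 reached 1 FPKM (fragments per kilobase, scaled to the library's total) in at least 3 libraries and were tested among 12251 genes. Irf8 was not analysed in the table of levels, and Oas1a and Oas2 did not reach the minimum.

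The TRACK mouse carries the transgene GGT-HIF1A_M3, in which the gamma-glutamyl transferase promoter, active in proximal tubule, drives a constitutively active form of the oxygen-regulated factor HIF1A. All mice were of the C57BL/6 background. The groups were TRACK mice on regular chow (TRACK, n = 4), wild-type mice on regular chow (WT, n = 3), TRACK mice on a vitamin A deficient diet (TRACK-VAD, n = 4) and wild-type mice on that deficient diet (WT-VAD, n = 3). Diets began 2 weeks after weaning and lasted 24 weeks. Each library is labelled as a biological replicate and was taken as a separate mouse. The labels give no sex. The comparisons address what the transgene and the diet do to expression in the cortex.

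Interferons are secreted proteins that bind receptors on the cell surface and switch on a shared set of genes through Janus kinases and STAT factors. Type I interferons act through a complex that holds Stat2 and Irf9 and binds the interferon-stimulated response element, while the type II response runs through the gamma-activated site and induces Irf1. The genes switched on restrict viruses and other pathogens inside cells, and they raise the supply of peptides for presentation on MHC class I. In kidney, both tubule cells and resident immune cells are known to respond to interferons.

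Hif1a itself measured 23.9 to 31.1 scaled FPKM in TRACK and 27.6 to 31.1 in WT, and the mouse row does not check the transgene. The HIF target Ndufa4l2 measured 117 to 138 scaled FPKM in TRACK against 2.41 to 2.52 in WT, and 68.4 to 118 in TRACK-VAD against 1.85 to 4.26 in WT-VAD. Absolute depth is unknown, because the files hold no counts per library. Between 11206 and 12277 genes per library reached 1 FPKM. Gpx3 alone held 62.8% to 71.2% of the summed FPKM, so values were divided by a scale factor of 0.897 to 1.18 per library, and are called scaled FPKM. TRACK-VAD libraries differed more among themselves than those of other groups: across the 12251 genes, pairs correlated at 0.957 to 0.992 in TRACK-VAD, and at 0.988 to 0.992 elsewhere. TRACK-VAD 1 and 2 lay together, and 3 and 4 lay together. All TRACK and WT libraries and TRACK-VAD 1 to 3 ran on lane 5. TRACK-VAD 4 and all WT-VAD libraries ran on lane 6.

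Among the genes examined, interferon-induced transcripts were higher in TRACK than in WT kidneys on chow, in every role, although most GTPases and most antigen processing genes did not pass the test. Of the 38 tested, 23 rose and none fell (limma, adjusted p at or under 0.05, two-sided, with Benjamini-Hochberg adjustment over 12251 genes), where 8.83% of all genes tested rose and 8.2% fell. The median log2 difference was 0.60 over the 38, against 0.01 over all genes tested. The difference was above 0 in 37 of them; the exception was Tapbp at -0.23 ± 0.12 (SE). In 29 of the 38 every TRACK library was above every WT library, as in 19.2% of all genes tested, and in Tapbp every one was below, as in 18.8%. Without scaling the median of all genes shifts by 0.16 (log2), and differences are relative to that shift. Macrophage and dendritic cell markers, 15 genes, summed to 316 to 401 scaled FPKM in TRACK against 157 to 175 in WT. Their part in these differences was not tested, and in whole cortex more cells of a type and more RNA per cell cannot be told apart.

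The count on chow depended on single libraries and on the filter. Leaving out WT 1 gave 8 higher genes, where 4.41% of all genes rose. Leaving out WT 2 gave 15 (7.04% of all genes), and leaving out WT 3 gave 7 (4.6%). Of the TRACK libraries, the second left 11 when dropped (5.92% of all genes) and TRACK 3 left 8 (5.53%). With no filter on low values 13 of 40 rose, where 6.29% of all genes did. Irf7, Dhx58, Parp14, Xaf1 and Trim30a, 5 genes named here after their values were seen, kept their call whichever library was left out. Genes low in wild type passed the filter through the transgenic groups: Dhx58 reached 1 FPKM in 8 of 14 libraries, and Zbp1 and Nlrc5 in 7 each. A count over genes that passed is therefore a description.

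On the deficient diet, 29 of the 38 rose in TRACK-VAD over WT-VAD and none fell, where 11.3% of all genes tested rose and 10.8% fell. The median log2 difference was 0.89, against -0.01 over all genes. In 30 of the 38 every TRACK-VAD library was above every WT-VAD library, as in 14.6% of all genes. Of the 23 genes that rose on chow, 20 (87.0%) rose here too, which is 69.0% of the 29. Over all genes tested, 660 rose in both comparisons, or 61.0% and 47.7% of those that rose in each. Stat2, Ifi44 and Gbp7 rose on chow and did not pass on the deficient diet, and 9 genes did the reverse: Irf9, Isg15, Gbp2, Gbp6, Igtp, Irgm2, Iigp1, Psmb10 and B2m. The differences between these differences are given with the interaction.

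The lane divides this second comparison. With lane as a term only Dhx58 rose, at 1.43 (limma, adjusted p = 0.0419), where 1.35% of all genes rose, and the median of the 38 was 0.61. That fit rests on TRACK-VAD 4, the only TRACK-VAD library on the lane of WT-VAD. Set against WT-VAD alone, TRACK-VAD 4 gave 7 higher genes, namely Irf7, Dhx58, Isg15, Ifit1, Ifit3, Oasl2 and Psmb8, where 3.58% of all genes rose. In that fit a lone library was assumed to vary like the other groups. With only these 2 groups in the fit the count was 15, where 2.87% of all genes rose.

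**Figure D1:**
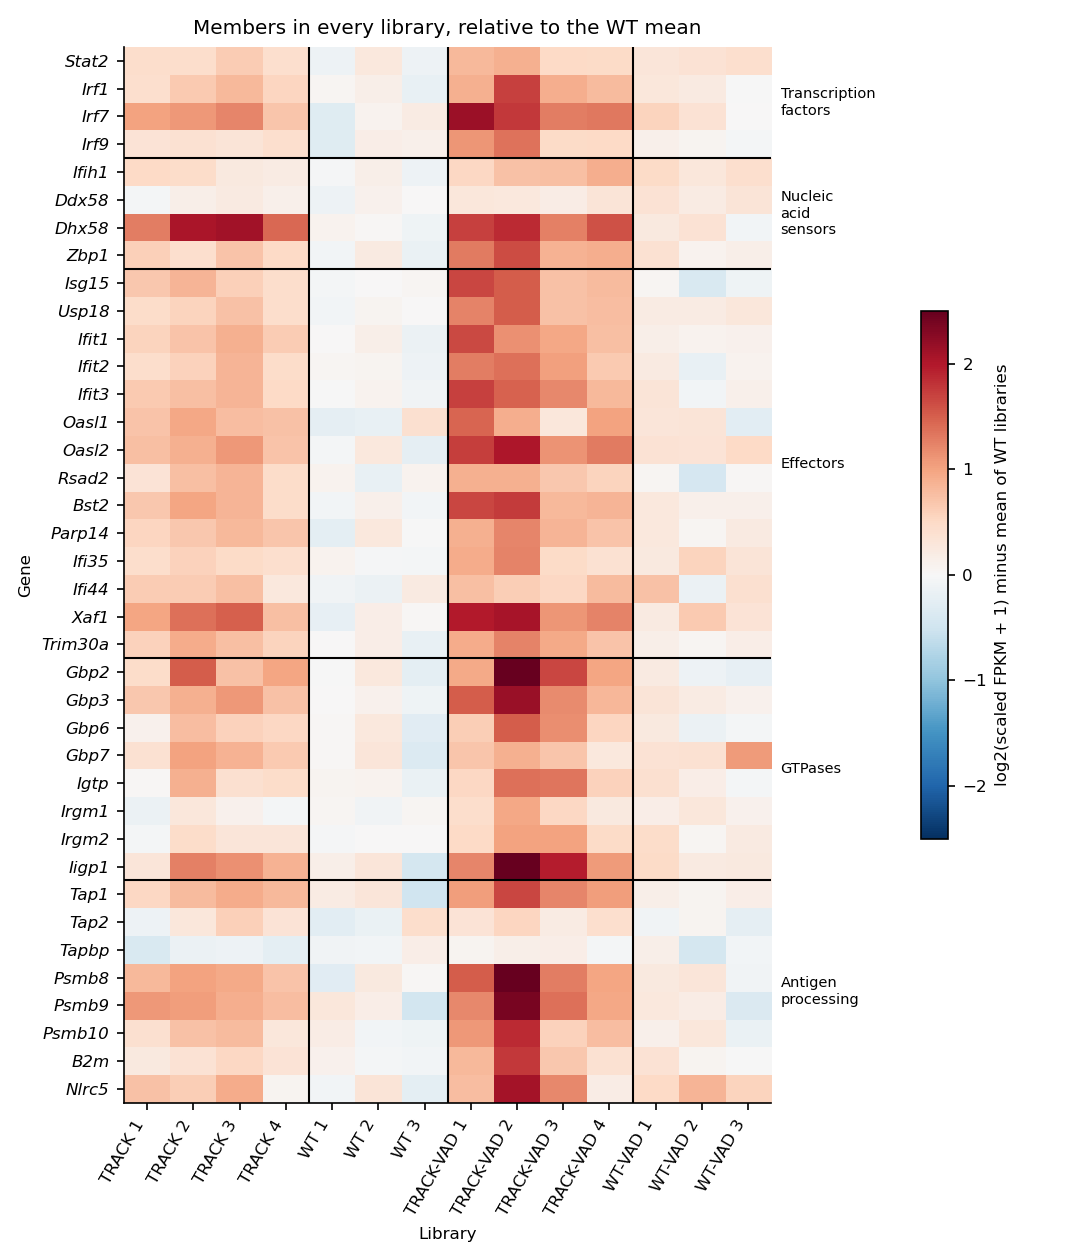
Each row is 1 of the 38 genes tested and each column 1 library; colour gives log2(scaled FPKM + 1) minus the mean of the 3 WT libraries, red for higher and blue for lower. The 8 transgenic columns are mostly red in every role, darkest in TRACK-VAD 2, and WT-VAD columns stay close to the WT columns except for single genes such as Gbp7 in WT-VAD 3.

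**Figure D2:**
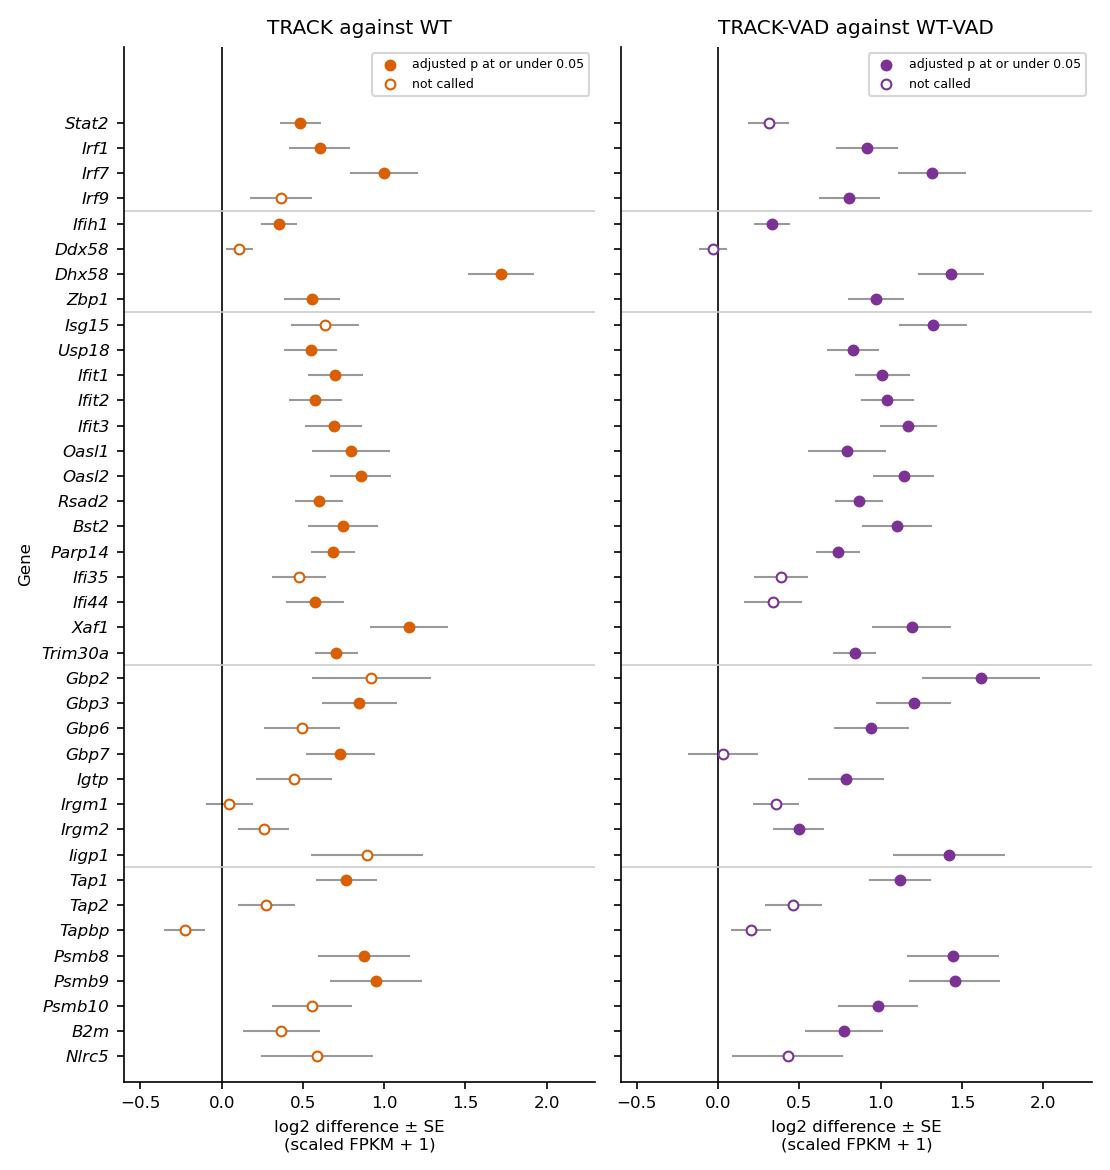
Points give the log2 difference of each gene with its standard error from limma, TRACK against WT on the left and TRACK-VAD against WT-VAD on the right; filled points passed at an adjusted p of 0.05. On the left 23 points are filled and on the right 29, and Tapbp on the left and Ddx58 on the right are the points below 0.

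Transcription factors are described first. Irf7 (ENSMUSG00000025498, chromosome 7, 141262706 to 141266481), which amplifies type I interferon transcription, measured 12.5, 13.3, 14.7 and 9.85 scaled FPKM in TRACK libraries 1 to 4, against 4.48, 6.17 and 6.78 in WT libraries. On the deficient diet it measured 28.7, 21.9, 15.3 and 15.8 scaled FPKM in TRACK-VAD, against 8.92, 7.64 and 5.79 in WT-VAD. The groups did not overlap in either comparison, and TRACK-VAD 1 was the highest of all libraries. The log2 difference was 0.998 ± 0.21 (SE) on chow (limma adjusted p = 0.00667) and 1.32 ± 0.21 on the deficient diet (limma adjusted p = 0.00151).

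Irf1 (ENSMUSG00000018899, chromosome 11, 53770014 to 53778374), a factor induced by type II interferon that binds promoters of antigen processing genes, measured 7.27, 8.65, 9.77 and 7.90 scaled FPKM in TRACK, against 5.37, 5.81 and 4.39 in WT. It measured 10.5, 19.3, 10.5 and 9.63 scaled FPKM in TRACK-VAD, against 6.51, 6.17 and 5.08 in WT-VAD. TRACK-VAD 2 stood far above the other TRACK-VAD libraries, and no library of WT or WT-VAD reached the lowest transgenic library of its diet. Irf1 rose by 0.60 ± 0.19 (SE) on chow (limma adjusted p = 0.0444, up to 0.171 with 1 library left out) and by 0.91 ± 0.19 on the deficient diet (limma adjusted p = 0.00625). Stat2 averaged 2.63 ± 0.266 scaled FPKM in TRACK and 1.61 ± 0.415 in WT (SD, n = 4 and 3), and rose by 0.48 on chow (limma adjusted p = 0.0201). Irf9, the DNA-binding partner of Stat2, averaged 10.9 ± 3.70 scaled FPKM in TRACK-VAD and 5.59 ± 0.382 in WT-VAD (SD, n = 4 and 3), and rose by 0.81 on that diet (limma adjusted p = 0.0111). In the authors' deposited table Irf8 differed by 0.02 (log2) in TRACK against WT (adjusted p = 0.932) and by 0.31 in TRACK-VAD against WT-VAD (adjusted p = 0.123). Irf1, Irf7 and Irf9 overlap another protein-coding gene, and reads without stated strand could be shared between them.

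Promoter windows of RefSeq on GRCm38.p6, reaching from 250 bases before to 50 bases after a gene's start, were searched on both strands for 2 copies of GAAA set apart by any 2 bases, the core of the interferon-stimulated response element (the GAAA pair), and for TTCNNNGAA, the core of the gamma-activated site. All matches of a motif were counted where they overlap, and the second motif reads alike on both strands. Of the 38 genes tested, 30 had a window. The GAAA pair stood in a window of 16 of the 30 (53.3%), against 3.44% of 32851 windows and 3.99% of 27025 genes. TTCNNNGAA stood in 8 of the 30 (26.7%), against 8.30% of windows and 9.55% of genes. Among transcription factors with a window, Stat2 held the first motif and Irf1 the second. Of 4 sensors tested, 2 had a window, Ddx58 and Ifih1, and each held the GAAA pair. The Irf1 window is shown because it holds a match to the gamma-activated site, given in capitals (chr11:53769764-53770063, plus strand, 90 bases before the start):
Irf1: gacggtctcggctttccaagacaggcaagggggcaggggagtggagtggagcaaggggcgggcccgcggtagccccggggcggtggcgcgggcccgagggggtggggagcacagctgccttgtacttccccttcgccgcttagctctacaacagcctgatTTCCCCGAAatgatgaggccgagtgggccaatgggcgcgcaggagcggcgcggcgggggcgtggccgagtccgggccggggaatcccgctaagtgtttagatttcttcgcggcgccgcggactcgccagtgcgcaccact

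Among sensors of foreign nucleic acid, Dhx58 alone held the largest difference on chow of all the genes examined. The median of the 4 sensors on chow, 0.45, was the lowest of any role. Dhx58 (ENSMUSG00000017830, chromosome 11, 100694884 to 100704271) encodes LGP2, an RNA helicase that tunes signalling by the other RNA sensors. It measured 2.90, 5.60, 5.91 and 3.34 scaled FPKM in TRACK, against 0.696, 0.626 and 0.496 in WT. It measured 4.23, 4.86, 2.82 and 3.86 scaled FPKM in TRACK-VAD, against 0.892, 1.05 and 0.524 in WT-VAD. The lowest transgenic library was thus above every wild-type library on both diets, and TRACK-VAD 2 did not stand apart. Dhx58 rose by 1.72 ± 0.20 (SE, log2) on chow (limma adjusted p = 0.000108) and by 1.43 ± 0.20 on the deficient diet (limma adjusted p = 0.000673). Group means differed by a ratio of 7.32 on chow, and the added 1 FPKM makes the log2 difference smaller than that ratio. Dhx58 passed the filter only through the 8 transgenic libraries, so its call is a description.

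Zbp1 (ENSMUSG00000027514, chromosome 2, 173206612 to 173218923), a sensor of Z-form nucleic acid that can start cell death, measured 1.16, 0.922, 1.34 and 1.01 scaled FPKM in TRACK, against 0.365, 0.681 and 0.276 in WT. It measured 2.53, 3.41, 1.63 and 1.69 scaled FPKM in TRACK-VAD, against 0.874, 0.519 and 0.585 in WT-VAD. Groups did not overlap, and TRACK-VAD 1 and 2 were the highest libraries. Zbp1 passed the filter only through 7 transgenic libraries, so its call is a description too. It rose by 0.56 ± 0.17 (SE) on chow (limma adjusted p = 0.042, up to 0.162 with 1 library left out) and by 0.97 ± 0.17 on the deficient diet (limma adjusted p = 0.00276). Ifih1, which encodes the RNA sensor MDA5, rose by 0.35 on chow (limma adjusted p = 0.044) and by 0.33 on the deficient diet (limma adjusted p = 0.0487). With 1 library left out it lost its call in 7 of the 14 fits on chow and in 13 of 14 on the deficient diet. In the authors' deposited table Ifih1 was higher on chow (log2 0.30, adjusted p = 0.0174). There it did not pass on the deficient diet (log2 0.06, adjusted p = 0.679). Ddx58, which encodes the RNA sensor RIG-I, differed by 0.11 (limma adjusted p = 0.397) and -0.03 (limma adjusted p = 0.815), and its groups overlapped on both diets.

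Of the antiviral effectors, 12 of 14 tested rose on each diet, where 8.83% of all genes rose on chow and 11.3% on the deficient diet. On chow all 14 had every TRACK library above every WT library, and their differences lay between 0.48 and 1.15 with a median of 0.69. On the deficient diet the median was 0.94, and the groups overlapped in 3 of the 14. Xaf1 (ENSMUSG00000040483, chromosome 11, 72301629 to 72313733), whose protein binds the apoptosis inhibitor XIAP, measured 5.39, 7.37, 8.06 and 4.45 scaled FPKM in TRACK, against 1.82, 2.64 and 2.28 in WT. It measured 11.8, 12.5, 5.96 and 6.66 scaled FPKM in TRACK-VAD, against 2.79, 4.11 and 3.10 in WT-VAD. TRACK-VAD 1 and 2 were both about level and well above 3 and 4. Xaf1 rose by 1.15 ± 0.24 (SE) on chow (limma adjusted p = 0.00645) and by 1.19 ± 0.24 on the deficient diet (limma adjusted p = 0.00551).

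Oasl2 (ENSMUSG00000029561, chromosome 5, 114896936 to 114912234), a relative of the oligoadenylate synthetases, measured 4.13, 4.65, 5.47 and 3.99 scaled FPKM in TRACK, against 1.98, 2.67 and 1.62 in WT. It measured 9.11, 11.5, 5.63 and 6.55 scaled FPKM in TRACK-VAD, against 2.92, 2.88 and 3.34 in WT-VAD. Neither pair overlapped, and every TRACK-VAD library was also above every TRACK library. It rose by 0.86 ± 0.19 (SE) on chow (limma adjusted p = 0.00844, up to 0.0504 without WT 3) and by 1.14 ± 0.19 on the deficient diet (limma adjusted p = 0.00184).

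Isg15 (ENSMUSG00000035692, chromosome 4, 156199424 to 156200818), a ubiquitin-like protein joined to others during the response, measured 3.58, 4.17, 3.34 and 2.89 scaled FPKM in TRACK, against 1.77, 1.91 and 1.96 in WT. It measured 8.16, 7.26, 3.80 and 4.00 scaled FPKM in TRACK-VAD, against 1.99, 1.22 and 1.68 in WT-VAD. TRACK-VAD 3 and 4 lay within the range of TRACK, and TRACK-VAD 1 and 2 lay above it. The log2 difference was 0.64 ± 0.21 (SE) on chow, just outside the threshold (limma adjusted p = 0.0504), and 1.32 ± 0.21 on the deficient diet, where it rose (limma adjusted p = 0.00129). The Isg15 window held 3 overlapping copies of the GAAA pair, the most of any sequence printed here, and is shown for that (chr4:156200769-156201068, minus strand, matches 78, 72 and 66 bases before the start):
Isg15: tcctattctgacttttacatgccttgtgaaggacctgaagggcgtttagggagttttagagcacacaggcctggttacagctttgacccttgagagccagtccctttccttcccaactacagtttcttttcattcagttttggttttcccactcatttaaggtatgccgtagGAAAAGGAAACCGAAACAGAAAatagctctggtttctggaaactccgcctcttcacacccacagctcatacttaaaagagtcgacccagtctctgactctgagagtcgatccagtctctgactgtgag

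Of the other effectors, Ifit1, Ifit2 and Ifit3, whose proteins bind viral RNA, rose by 0.70, 0.58 and 0.69 on chow and by 1.01, 1.04 and 1.17 on the deficient diet. Bst2, or tetherin, which holds budding virus at the cell surface, averaged 17.3 ± 2.85 scaled FPKM in TRACK and 9.84 ± 0.887 in WT (SD, n = 4 and 3). It averaged 26.3 ± 9.41 scaled FPKM in TRACK-VAD and 11.2 ± 0.739 in WT-VAD (SD, n = 4 and 3). Rsad2 (viperin), Parp14, Trim30a, Oasl1 and Usp18, which removes Isg15 from its targets, rose on both diets, by 0.55 to 0.79 on chow and by 0.74 to 0.87 on the deficient diet, where the Oasl1 groups overlapped. Ifi35 passed on neither diet, at 0.48 and 0.39. Oas1a and Oas2, synthetases of the signal that activates RNase L, stayed under the filter. Oas1a averaged 1.33 ± 0.567 scaled FPKM in TRACK-VAD and 0.363 ± 0.0172 in WT-VAD (SD, n = 4 and 3), without overlap. The GAAA pair stood in 6 of 12 effectors with a window: Bst2, Ifit1, Ifit3, Isg15, Rsad2 and Trim30a. Ifit3, Oas1a and Trim30a have near-identical neighbours, and their values are uncertain to that extent.

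**Figure D3:**
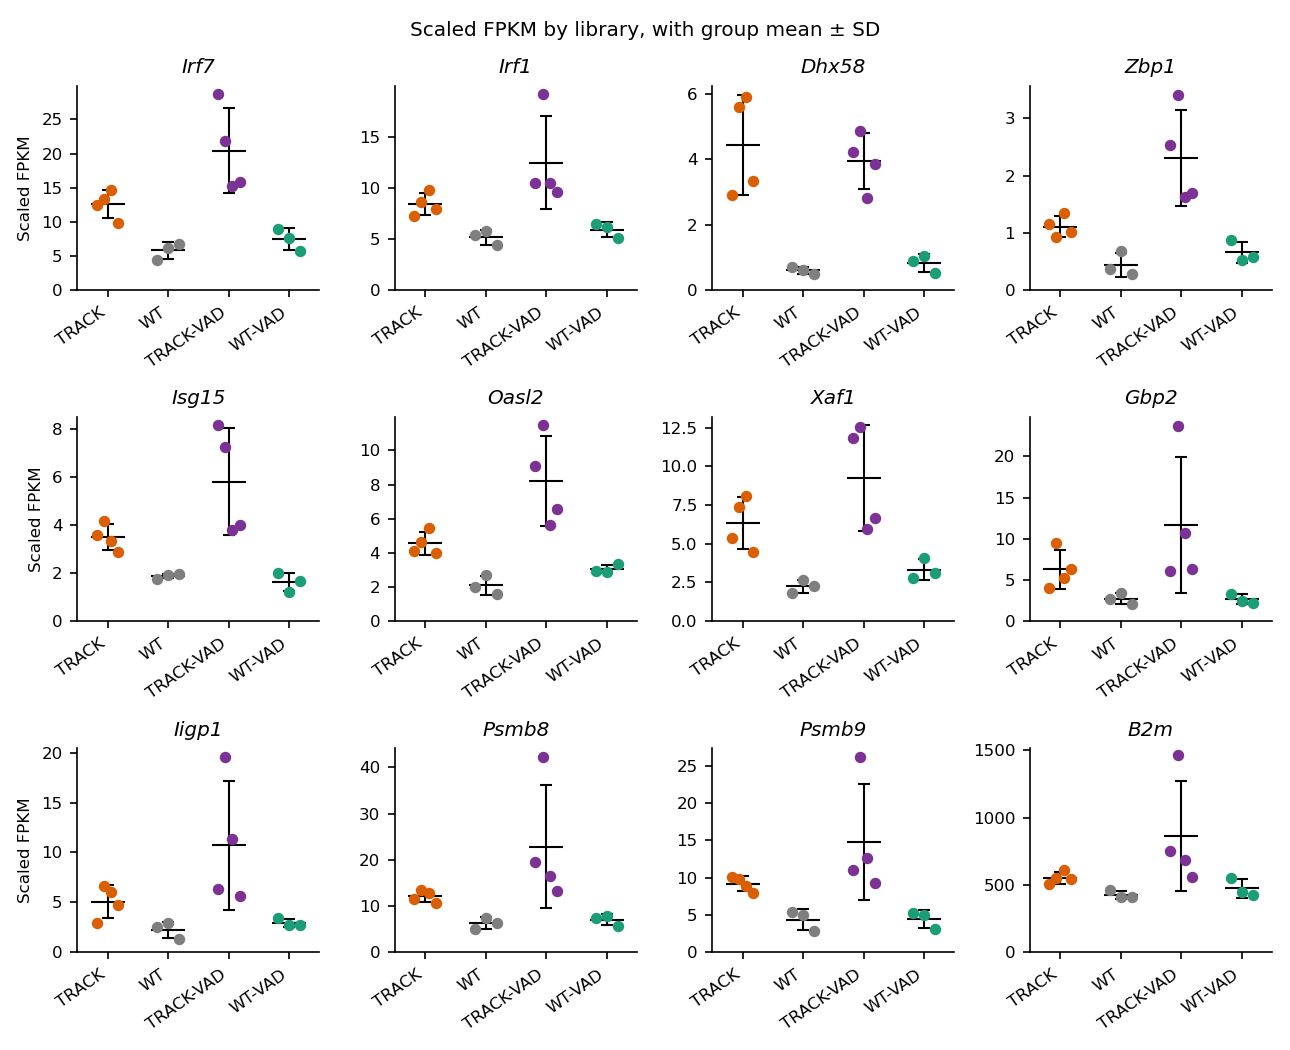
Scaled FPKM of 12 genes in every library, with the mean and SD of each group; every panel starts at 0. Dhx58 separates the genotypes at about the same level on both diets, whereas for Gbp2, Iigp1, Psmb8, Psmb9 and B2m the TRACK-VAD spread comes with 1 library, TRACK-VAD 2, far above the others.

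Interferon-induced GTPases act on the membranes that surround pathogens inside cells, and most are known to respond strongly to type II interferon. On chow 2 of 8 rose, Gbp3 by 0.85 ± 0.23 (SE, limma adjusted p = 0.0245) and Gbp7 by 0.73 ± 0.21 (SE, limma adjusted p = 0.0327). Of all genes, 8.83% rose there. With 1 library left out, the limma adjusted p on chow reached up to 0.0952 for Gbp3 and 0.155 for Gbp7. On the deficient diet 6 of 8 rose, where 11.3% of all genes did. Gbp2 (ENSMUSG00000028270, chromosome 3, 142620602 to 142638008), a guanylate-binding protein, measured 4.07, 9.54, 5.19 and 6.30 scaled FPKM in TRACK, against 2.67, 3.46 and 2.11 in WT. It measured 6.12, 23.7, 10.7 and 6.30 scaled FPKM in TRACK-VAD, against 3.33, 2.41 and 2.20 in WT-VAD. Replicate 2 was the highest in both transgenic groups, and neither pair of groups overlapped. The log2 difference was 0.92 ± 0.36 (SE) on chow, which did not pass (limma adjusted p = 0.0987), and 1.62 ± 0.36 on the deficient diet (limma adjusted p = 0.00909), the largest there of the genes examined.

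Iigp1 (ENSMUSG00000054072), an immunity-related GTPase, measured 2.91, 6.60, 6.02 and 4.75 scaled FPKM in TRACK, against 2.49, 2.92 and 1.32 in WT. It measured 6.33, 19.6, 11.3 and 5.59 scaled FPKM in TRACK-VAD, against 3.43, 2.67 and 2.74 in WT-VAD. TRACK 1 lay just under the highest WT library, so the chow groups overlapped. The log2 difference was 0.90 ± 0.34 (SE) on chow (limma adjusted p = 0.0902) and 1.42 ± 0.34 on the deficient diet, where it rose (limma adjusted p = 0.0127). Irgm1 was the most abundant of the 8 per length, with a mean of 31.4 scaled FPKM over the 14 libraries, and passed on neither diet. Gbp7 averaged 2.86 ± 0.662 scaled FPKM in TRACK-VAD and 2.83 ± 1.11 in WT-VAD (SD, n = 4 and 3), where WT-VAD 3 alone measured 4.11.

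All 6 GTPases with a window held the GAAA pair: Gbp2, Gbp3, Gbp7, Igtp, Irgm1 and Irgm2. Gbp7, Igtp and Irgm2 held TTCNNNGAA too. Igtp and Irgm2 overlap each other on the same strand, so their reads are not separate observations. Their windows do not overlap (chr11:58199306-58199605 and chr11:58214727-58215026) but closely resemble each other in sequence. Gbp6 also overlaps another protein-coding gene and has a near-identical copy. The Gbp2 window is shown as the GTPase with the largest difference on the deficient diet. Its match is on the minus strand, so the capitals show the reverse complement of the motif (chr3:142620413-142620712, plus strand, 59 bases before the start):
Gbp2: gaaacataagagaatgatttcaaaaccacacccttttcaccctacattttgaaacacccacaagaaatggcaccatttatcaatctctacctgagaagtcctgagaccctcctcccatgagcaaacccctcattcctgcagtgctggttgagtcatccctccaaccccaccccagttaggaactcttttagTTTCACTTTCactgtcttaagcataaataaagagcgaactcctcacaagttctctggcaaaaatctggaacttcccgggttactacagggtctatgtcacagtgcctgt

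Of 8 antigen processing genes, 3 rose on chow, where 8.83% of all genes did, and 5 on the deficient diet, where 11.3% did. Psmb8 and Psmb9, induced catalytic subunits that replace the constitutive ones in the immunoproteasome, and the peptide transporter subunit Tap1 rose on both diets. The third induced subunit, Psmb10, and B2m rose on the deficient diet. Tap2, which pairs with Tap1, and Tapbp (tapasin), which holds MHC class I at the transporter, passed on neither diet in limma. In the authors' deposited table Tap2 was higher on the deficient diet (log2 0.49, adjusted p = 0.0029), and Tapbp was not called on either. Psmb8 (ENSMUSG00000024338, chromosome 17, 34197721 to 34201454) measured 11.6, 13.4, 12.8 and 10.7 scaled FPKM in TRACK, against 4.91, 7.49 and 6.28 in WT. It measured 19.5, 42.3, 16.4 and 13.2 scaled FPKM in TRACK-VAD, against 7.49, 7.86 and 5.69 in WT-VAD. Neither pair of groups overlapped. Psmb8 rose by 0.87 ± 0.28 (SE) on chow (limma adjusted p = 0.0499) and by 1.44 ± 0.28 on the deficient diet (limma adjusted p = 0.00463). On chow it lost its call in 11 of the 14 fits with 1 library left out (limma adjusted p up to 0.18). In the authors' deposited table it did not pass on chow (log2 0.56, adjusted p = 0.118). There it was higher on the deficient diet (log2 1.37, adjusted p = 9.2e-06).

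Psmb9 (ENSMUSG00000096727, chromosome 17, 34181988 to 34187764) measured 10.1, 9.82, 8.87 and 7.91 scaled FPKM in TRACK, against 5.38, 4.92 and 2.84 in WT. It measured 11.05, 26.3, 12.6 and 9.31 scaled FPKM in TRACK-VAD, against 5.27, 4.95 and 3.11 in WT-VAD. Every transgenic library was again above every wild-type library. It rose by 0.95 ± 0.28 (SE) on chow (limma adjusted p = 0.0354, up to 0.166 with 1 library left out) and by 1.45 ± 0.28 on the deficient diet (limma adjusted p = 0.00442). Psmb10 (ENSMUSG00000031897, chromosome 8, 105935735 to 105938444) measured 20.1, 25.7, 26.5 and 18.5 scaled FPKM in TRACK, against 17.1, 14.2 and 13.7 in WT. It measured 32.7, 57.4, 22.6 and 26.1 scaled FPKM in TRACK-VAD, against 16.5, 18.4 and 13.3 in WT-VAD. The groups did not overlap, though TRACK 4 and WT 1 were close. The log2 difference was 0.55 ± 0.25 (SE) on chow, which did not pass (limma adjusted p = 0.137), and 0.98 ± 0.25 on the deficient diet (limma adjusted p = 0.0147).

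B2m (ENSMUSG00000060802, chromosome 2, 122147686 to 122153083), the light chain of MHC class I, was the most abundant of the 41 per length. It measured 505, 550.3, 609.9 and 544 scaled FPKM in TRACK, against 462, 412 and 409 in WT. It measured 752, 1464, 683 and 558 scaled FPKM in TRACK-VAD, against 551, 448 and 422 in WT-VAD. The groups did not overlap on either diet, and TRACK-VAD 4 was only just above WT-VAD 1. B2m rose by 0.77 ± 0.24 (SE) on the deficient diet (limma adjusted p = 0.0347, up to 0.111 with 1 library left out), and the difference on chow was 0.37 ± 0.24 (limma adjusted p = 0.307). Tap1 rose by 0.77 on chow (limma adjusted p = 0.0146, up to 0.0717 without WT 3) and by 1.12 on the deficient diet (limma adjusted p = 0.00204). Nlrc5 is the transactivator of MHC class I genes. It averaged 1.03 ± 0.477 scaled FPKM in TRACK and 0.338 ± 0.276 in WT (SD, n = 4 and 3). It passed on neither diet in limma, and was higher on the deficient diet in the authors' deposited table (log2 1.06, adjusted p = 0.00751). Tapbp averaged 39.2 ± 3.09 scaled FPKM in TRACK and 46.1 ± 4.56 in WT (SD, n = 4 and 3).

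Of the antigen processing genes with a window, B2m held the GAAA pair and Psmb8 held TTCNNNGAA. Tap1 and Psmb9 are divergent neighbours whose windows overlap by most of their length and hold neither motif, and their loci overlap on opposite strands. The windows of these 3 genes are shown so that the sites of B2m and Psmb8 can be set beside a window that holds none. The coordinates are chr2:122147437-122147736 for B2m (139 bases before the start), chr17:34197945-34198244 for Psmb8 (97 bases before a RefSeq start that lies inside the locus of the table) and chr17:34187306-34187605 for Tap1, all plus strand:
B2m: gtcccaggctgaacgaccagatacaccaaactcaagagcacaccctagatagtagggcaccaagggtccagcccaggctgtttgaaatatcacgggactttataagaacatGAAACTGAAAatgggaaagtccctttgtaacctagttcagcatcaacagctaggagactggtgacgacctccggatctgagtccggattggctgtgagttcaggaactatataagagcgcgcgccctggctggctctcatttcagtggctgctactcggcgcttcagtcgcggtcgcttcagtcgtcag
Psmb8: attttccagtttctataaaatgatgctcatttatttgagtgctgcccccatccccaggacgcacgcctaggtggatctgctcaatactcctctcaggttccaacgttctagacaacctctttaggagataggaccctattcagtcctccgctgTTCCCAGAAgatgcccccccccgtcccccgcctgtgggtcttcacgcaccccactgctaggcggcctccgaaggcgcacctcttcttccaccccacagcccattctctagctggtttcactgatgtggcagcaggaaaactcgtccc
Tap1: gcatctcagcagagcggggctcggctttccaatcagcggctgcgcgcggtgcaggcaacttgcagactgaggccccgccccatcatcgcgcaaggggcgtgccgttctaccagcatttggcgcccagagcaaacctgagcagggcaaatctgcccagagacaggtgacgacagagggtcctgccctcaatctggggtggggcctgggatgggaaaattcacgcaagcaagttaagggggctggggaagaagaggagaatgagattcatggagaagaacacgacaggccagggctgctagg

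The ratio of each induced proteasome subunit to the constitutive subunit it replaces needs no scaling between libraries. Psmb8 over Psmb5 was 0.135 to 0.186 in TRACK against 0.0537 to 0.0888 in WT, and 0.156 to 0.496 in TRACK-VAD against 0.0649 to 0.0825 in WT-VAD. Psmb9 over Psmb6 was 0.0522 to 0.0665 in TRACK against 0.0156 to 0.0311 in WT, and 0.0609 to 0.143 in TRACK-VAD against 0.0202 to 0.0294 in WT-VAD. Psmb10 over Psmb7 was 0.155 to 0.236 in TRACK against 0.104 to 0.121 in WT, and 0.193 to 0.461 in TRACK-VAD against 0.0966 to 0.117 in WT-VAD. None of the 6 pairs of groups overlapped, so transcripts of induced subunits stood higher beside those of constitutive ones in every transgenic library. These are ratios of transcript levels, and protein was not examined here. The log2 differences were 1.22, 1.31 and 0.78 on chow and 1.72, 1.76 and 1.28 on the deficient diet. An exact two-sided permutation test gave p = 0.0571 for each of the 6, also after Benjamini-Hochberg adjustment, which is the smallest p that 4 against 3 libraries allow. Psmb5, Psmb6 and Psmb7 themselves differed by -0.24, -0.19 and -0.20 on chow, where none passed. Psmb7 fell by 0.25 on the deficient diet (limma adjusted p = 0.0231).

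**Figure D4:**
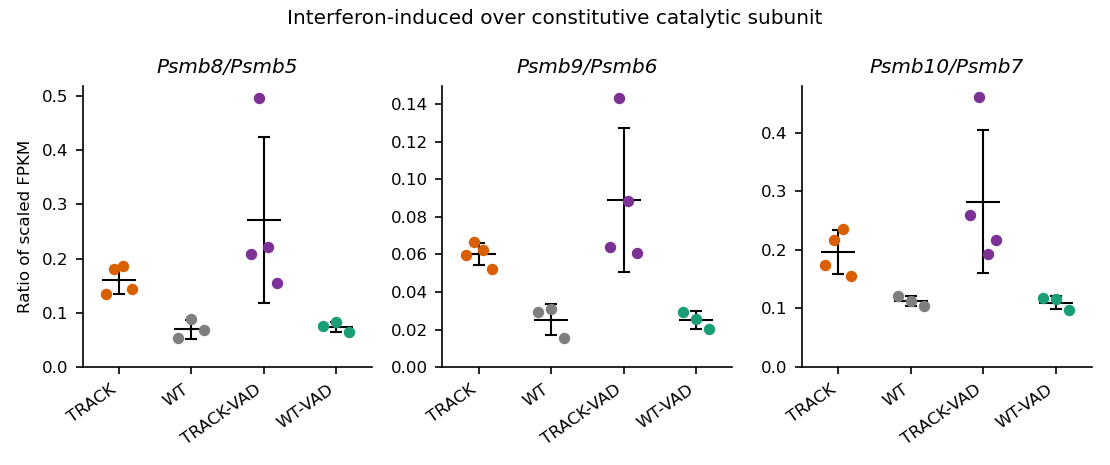
Ratio of scaled FPKM of each induced proteasome subunit to its constitutive counterpart in every library, with the mean and SD of each group; axes start at 0. All TRACK points lie above all WT points and all TRACK-VAD points above all WT-VAD points in the 3 panels, and TRACK-VAD 2 is the highest in each.

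Within TRACK-VAD, TRACK-VAD 2 was the highest of its group in 28 of the 38 genes, TRACK-VAD 1 in 5, TRACK-VAD 3 in 2 and TRACK-VAD 4 in 3. The same count over all genes was not made, and TRACK-VAD 2 had the lowest mean correlation with its own group (0.967). By role it was the highest in 3 of 4 transcription factors, 2 of 4 sensors, 9 of 14 effectors, 7 of 8 GTPases and 7 of 8 antigen processing genes. Among effectors TRACK-VAD 1 and 2 were close, with a median ratio of TRACK-VAD 2 to TRACK-VAD 1 of 1.06, whereas the median ratio was 1.80 among GTPases and 1.85 among antigen processing genes. TRACK-VAD 1 in turn was above the mean of TRACK-VAD 3 and 4 among effectors, with a median ratio of 1.53, and below it among GTPases, with a median ratio of 0.779. These are values of single mice and carry no test. With TRACK-VAD 3 and 4 alone, a choice made after the data were seen, 25 of the 38 rose over WT-VAD, where 6.04% of all genes rose, and the median difference was 0.68.

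Some markers of other cells and of tubular injury also differed among these libraries. Summed over 15 macrophage and dendritic cell markers, the level was 422, 1071, 461 and 469 scaled FPKM in TRACK-VAD 1 to 4. The injury markers Havcr1 and Lcn2 summed to 163, 384, 22.9 and 51.2 scaled FPKM in the same order, and 8 proximal tubule markers summed to 2571, 2111, 4286 and 4228. TRACK-VAD 2 was thus the highest in macrophage and injury markers and the lowest in proximal tubule markers, and TRACK-VAD 1 followed it in the injury and proximal tubule markers. In macrophage markers TRACK-VAD 1 was the lowest of its group. B and plasma cell markers ran in another order, with sums of 48.7, 93.7, 164 and 259 scaled FPKM in TRACK-VAD 1 to 4. The part of these cells in the gene differences was not tested.

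**Figure D5:**
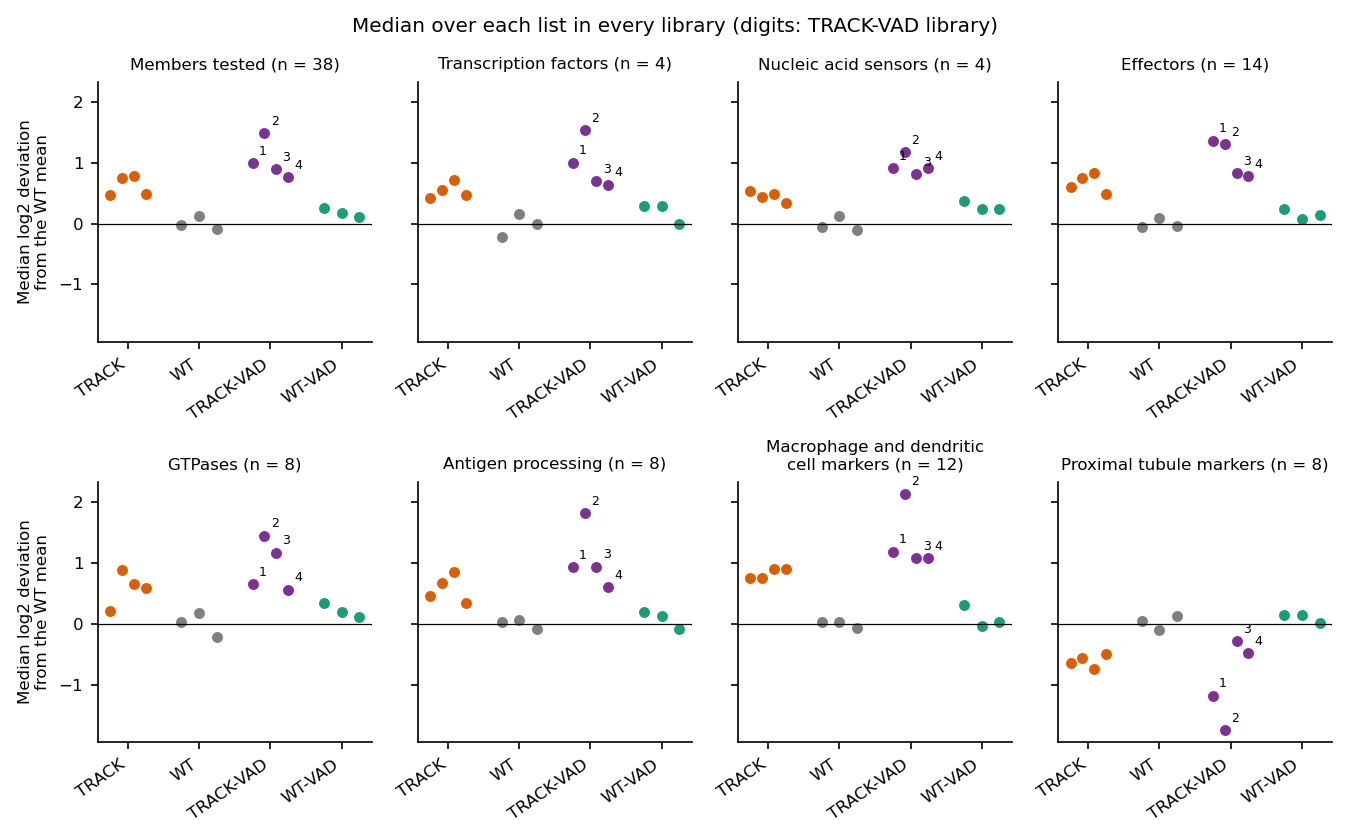
Median over the genes of each list of the log2 deviation from the WT mean, 1 point per library, digits naming the TRACK-VAD library. TRACK-VAD 1 and 2 stand together for effectors, TRACK-VAD 2 stands alone for antigen processing and macrophage markers, and the proximal tubule panel runs the other way, with TRACK-VAD 1 and 2 lowest.

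The diet alone, in WT-VAD against WT, moved none of the 38 past the threshold in limma, where 0.22% of all genes tested rose and 0.514% were called in either direction. At an unadjusted p of 0.05, 4 of the 38 were higher and none lower, and 4.82% of all genes were higher. The median difference was 0.17, against 0.01 over all genes, and in 12 of the 38 every WT-VAD library was above every WT library, as in 9.37% of all genes. In the authors' deposited table Ifih1 rose by 0.58 (log2, adjusted p = 1.48e-05) and Ddx58 by 0.41 (adjusted p = 0.00305), where 0.93% of all genes in that table were higher, and no other gene of the 41 was called. WT and WT-VAD ran on different lanes, so lane and diet cannot be told apart in these 2 groups.

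In TRACK-VAD against TRACK none of the 38 passed in limma, where 0.00816% of all genes rose and 0.155% were called in either direction, though 23 were higher and none lower at an unadjusted p of 0.05, as were 4.75% of all genes. The median difference was 0.48, against -0.01 over all genes. Iigp1 averaged 10.7 ± 6.43 scaled FPKM in TRACK-VAD and 5.07 ± 1.64 in TRACK (SD, n = 4 each), the largest difference at 0.84 ± 0.32 (SE, limma adjusted p = 0.385). In 8 genes every TRACK-VAD library was above every TRACK library, as in 2.18% of all genes tested. Without TRACK-VAD 4, Ifit3 alone was called, at 0.77 (limma adjusted p = 0.0259). Lane as a term gave the same call, since it sets this comparison on TRACK-VAD 1 to 3 as well, and is no second result. Of the 41, 7 were higher in the authors' deposited table: Irf7, Ifih1, Usp18, Ifit3, Oas1a, Oasl2 and Irgm1, where 0.47% of all genes in that table were. With TRACK-VAD 3 and 4 alone the median difference was 0.16.

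The genotype difference on the deficient diet minus that on chow was above 0 in 29 of the 38, with a median of 0.31, and none passed in limma. Of all genes tested, 0% were higher in this interaction and 0.00816% were called in either direction. At an unadjusted p of 0.05, where 3.54% of all genes were higher, Isg15 (0.69, limma adjusted p = 0.572) and Tapbp (0.43, limma adjusted p = 0.557) were higher and Gbp7 (-0.70, limma adjusted p = 0.58) was lower. With lane as a term the median was -0.01, and with TRACK-VAD 3 and 4 alone it was 0.05. A larger genotype difference on the deficient diet was therefore not shown for any gene here.

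Ligands of the pathway were near or at 0. None of 9 interferon genes looked at passed the filter: Ifnb1, Ifna1, Ifna4, Ifnl2, Ifnl3 and Ifne were listed at 0 in all 14 libraries, and Ifna2 and Ifnk in 13. Ifng, the type II interferon, was at most 0.267 scaled FPKM, in TRACK-VAD 2. Of 14 tested receptors, kinases and inhibitors, 2 rose on chow and 1 on the deficient diet, few enough to lie near the 8.83% and 11.3% of all genes that rose. Ifngr1, a chain of the type II interferon receptor, rose by 0.45 on chow (limma adjusted p = 0.0457) and by 0.58 on the deficient diet (limma adjusted p = 0.0142). Irf5 rose by 0.65 on chow (limma adjusted p = 0.0255). The median of the 14 was 0.16 on chow and 0.19 on the deficient diet. Of 11 tested genes of upstream sensing, 1 rose and 1 fell on chow, where 8.83% of all genes rose and 8.2% fell, and 2 rose and 1 fell on the deficient diet, where 11.3% rose and 10.8% fell. These counts are near those shares. Adar, an RNA editing enzyme, rose on both diets (0.39 and 0.38), Tmem173, which encodes STING, rose on the deficient diet (0.88), and Ticam1 on chow (-0.33) and Trim25 on the deficient diet (-0.34) fell.

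Of 33 other interferon-induced genes tested from a list of 42, 9 rose on chow (8.83% of all genes did) and 22 on the deficient diet (11.3% of all genes did) and none fell, with medians of 0.51 and 0.72. The chemokine Cxcl10 averaged 8.49 ± 2.03 scaled FPKM in TRACK and 2.33 ± 0.434 in WT (SD, n = 4 and 3), and rose by 1.49 on chow (limma adjusted p = 0.00172) and by 1.71 on the deficient diet (limma adjusted p = 0.000886). Rtp4 and Slfn2 rose by 0.90 and 0.84 on chow and by 1.33 and 1.16 on the deficient diet. Ifitm1 rose by 0.98 on chow and by 0.92 on the deficient diet, and the GTPase Ifi47 rose by 1.49 on the deficient diet. Of 15 MHC class I genes and loading factors, 5 rose on chow and 7 on the deficient diet and none fell, with medians of 0.43 and 0.33. The heavy chain genes H2-K1, H2-D1 and H2-Q4 rose on both diets, by 0.83, 0.62 and 0.87 on chow and by 0.99, 0.86 and 0.91 on the deficient diet. H2-Q10 rose on chow (0.72) and H2-Q7 on the deficient diet (0.93). These heavy chain genes resemble each other closely, and reads may have been divided between them.

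Marker lists of other cells also differed between genotypes. For scale, 8.83% of all genes tested rose and 8.2% fell on chow. On the deficient diet 11.3% rose and 10.8% fell. Of 12 tested macrophage and dendritic cell markers 9 rose on chow and 11 on the deficient diet, and none of the 15 listed was at 0 in every library. Their summed level on the deficient diet was 422 to 1071 scaled FPKM in TRACK-VAD against 149.5 to 228 in WT-VAD. B and plasma cell markers rose in 4 of 4 tested on both diets, with sums of 166 to 383 scaled FPKM in TRACK against 12.4 to 21.6 in WT, and 48.7 to 259 in TRACK-VAD against 23.3 to 46.1 in WT-VAD. T and NK cell markers rose in 1 of 5 on chow and 3 of 5 on the deficient diet, with sums of 7.82 to 12.2 scaled FPKM in TRACK against 4.05 to 5.37 in WT, and 7.02 to 26.7 in TRACK-VAD against 2.55 to 4.90 in WT-VAD. Endothelial markers rose in 5 of 7 on both diets. The 2 neutrophil markers tested passed on neither diet. Proximal tubule markers fell in 3 of 8 on both diets, with sums of 3155 to 3499 scaled FPKM in TRACK against 5111 to 6138 in WT, and 2111 to 4286 in TRACK-VAD against 5061 to 5636 in WT-VAD, so the markers of labelled kidney cortex were present throughout. The part of immune and tubule cells in the differences of interferon response genes was not tested.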

How the data were processed

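RNA from kidney cortex of 14 mice was sequenced as single-end reads on a HiSeq2000, per the labels' protocols. The deposited table holds FPKM per protein-coding gene locus for each library, as the authors made it; the sources used here do not name its program or annotation, and mm9 and DESeq 1.32 are named in the submitters' processing notes. Of the 40 loci, 35 equal GENCODE vM21 loci on GRCm38, so coordinates are given on that build. The authors' deposited comparison tables give a mean signal of normalized counts, log2 fold changes and p-values per gene. Columns of 6 libraries that match no sample were not used.

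FPKM were divided by library factors from a trimmed mean of log ratios (trims of 30% and 5%). Genes with 1 FPKM in at least 3 libraries were kept, 17 with zeros among high values were left out, and log2(scaled FPKM + 1) was fitted with limma 3.58.1 (trend, 4 group means, all 14 libraries) in R 4.3.3, with Benjamini-Hochberg adjustment over 12251 genes. The added 1 FPKM understates the change of low genes. The fit was tested on simulated data. Ratios were compared by exact permutation in scipy 1.17.1. Alternatives were no scaling, another pseudocount, no filter, a replicate block, lane as a term, fewer groups, each library left out, and the authors' tables. Members, lists and the rule for named genes were chosen with earlier results of these data known; values per library are given for the 2 members of each role with the largest log2 difference on each diet and for Psmb8, Psmb9, Psmb10 and B2m, while other lists name at most 4 called genes each. Same-numbered libraries showed no steady correlation of their deviations, so numbers were not used as pairs. P-values of the main limma fit set differences of group means against a spread between these libraries. That spread was estimated jointly over the 4 groups, although TRACK-VAD varied more.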

Additional observations from a re-analysis of the deposited data

Results flagged for a closer look

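Stat2 in TRACK 3 measured 3.03 scaled FPKM, set apart from the other TRACK libraries, which lay close together. Irf1 in TRACK-VAD 2 measured 19.3 scaled FPKM, far above the other TRACK-VAD libraries. In both, the gap to the nearest library divided by the range of the group was above Dixon's critical value for 4 samples. Of 76 groups of 4 libraries examined, 2 met it, and chance alone gives about 1 in 20.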

How the results depend on the processing

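No called difference changed sign under any alternative run. In TRACK against WT the 23 higher genes became 13 without the filter and 7 to 29 with 1 library left out. With only TRACK and WT in the fit they became 30, where 14.6% of all genes rose. In TRACK-VAD against WT-VAD the 29 became 1 with lane as a term, 15 with only these 2 groups and 7 with TRACK-VAD 4 as the only TRACK-VAD library, and stayed within 23 to 30 with 1 library left out. The median difference was 0.89 in the main fit and with only these 2 groups. It was 0.61 with lane as a term and with TRACK-VAD 4 alone. The lane and single-library fits rest on fewer libraries, and the cause of these changes was not tested. The authors' deposited table called 24 of the 38 higher in TRACK against WT, 22 of them shared with the main fit. It called 31 higher in TRACK-VAD against WT-VAD, 28 of them shared. Of all genes in that table, 11.8% and 14.7% were higher. In WT-VAD against WT, 2 were called in the authors' deposited table and none here. In TRACK-VAD against TRACK, 1 was called with lane as a term, which for this comparison leaves TRACK-VAD 1 to 3, 0 to 1 with 1 library left out, and 6 of the 38 in the authors' deposited table. The replicate block gave 25 higher genes on chow, 21 of them shared with the fit without it, and 29 on the deficient diet, 27 shared, where 9.75% and 12.7% of all genes rose. Same-numbered libraries correlated at -0.142 to 0.382 in their deviations from group means. Log2 differences of the ratio Psmb8 over Psmb5 lay within 1.04 to 1.40 on chow and 1.38 to 1.94 on the deficient diet with 1 library left out, and those of the other ratios kept their sign. Low genes such as Dhx58, Zbp1 and Nlrc5 are limited by depth, which is unknown.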
